A study of Mus musculus with 4 samples.

Results

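The genes described here encode the digestive enzymes of the pancreatic acinar cell and the proteins of the zymogen granule that stores them, 37 genes chosen by name. Of these, 36 of the 52535 gene models in the count files carried a listed name, and 34 of the 36 had enough counts to be tested. The remaining name, Spink3, is an older symbol of Spink1 in RefSeq, and that gene is counted once. The libraries are RNA sequencing of mouse pancreatic duct cells, on a C57BL/6 background, in 2 groups of 2. Wild-type libraries (WT 1 and WT 2) were compared with libraries labelled Lats1/2 knockout (KO 1 and KO 2), whose genotype is Lats1fl/fl; Lats2fl/fl; Sox9-CreER. In that genotype a tamoxifen-dependent Cre driven by Sox9, a gene that marks duct cells in the adult pancreas, is meant to delete floxed segments of the kinases LATS1 and LATS2. The isolation method, the animals' age, the tamoxifen schedule and the wild-type animals' treatment were not given in the sources used here. No label says that a group's libraries came from separate animals. The p-values therefore measure only the spread between these samples, which may be technical. Both kinases keep the co-activators YAP and TAZ inactive, and the labels set wild-type duct cells against duct cells of the genotype meant to lose them. The targeted genes were read first, as a check of the labels. Lats1 was at 50.5 and 65.3 CPM (counts per 1000000, scaled with TMM factors) in wild type and 69.6 in KO 1 and 78.7 in KO 2 (edgeR adjusted p = 0.171). Lats2 was at 114 and 102 CPM in wild type, 162 in KO 1 and 121 in KO 2 (edgeR adjusted p = 0.127). Neither was lower in the libraries labelled knockout, and whole-gene counts include exons outside a deleted segment.

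Acinar cells make digestive enzymes as inactive precursors (zymogens) in the endoplasmic reticulum, pack them into granules and release them into the duct lumen when cholecystokinin or acetylcholine acts on the cell. Trypsinogen is cut to trypsin in the intestine, and trypsin then activates the other protease precursors, phospholipase A2 and colipase. The acinar programme is held by a transcription factor complex of PTF1A and RBPJL together with BHLHA15 (MIST1) and NR5A2. Duct cells carry the secretion and are not known as a main source of these enzymes.

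The libraries held 3566387 to 5925601 counts, where 3 counts equal 0.483 to 0.820 CPM. All 12 duct markers were detected in all 4 libraries. Rose and fell here mean an edgeR adjusted p under 0.05, by which 22.0% of all 13990 genes tested rose and 20.2% fell. Of the 12 duct markers, 9 rose and 0 fell, and their summed level was 1999.99 to 2501 CPM in WT and 14408 to 14711 CPM in KO libraries. Markers of other cell types differed as well. Of 8 islet markers, 4 fell and 0 rose, with a summed level of 1153 to 2185 CPM in WT and 164 to 284 CPM in KO libraries. All 8 macrophage markers rose (496 to 533 CPM in WT and 3403 to 4684 CPM in KO libraries). Of the fibroblast markers 6 of 8 rose and 1 fell (2854 to 3180.3 CPM in WT and 9519 to 15059 CPM in KO libraries). All 8 T and NK cell markers fell (1016 to 1031 CPM in WT and 22.5 to 43.2 CPM in KO libraries). All 8 B cell markers fell (2543 to 2596 CPM in WT and 79.8 to 207 CPM in KO libraries), as did 7 of 8 endothelial markers (1207 to 1261 CPM in WT and 567 to 581 CPM in KO libraries). Nkg7, at 0 in KO 2, was the only marker of these lists at 0 in any library. The part of these shifts in the results on acinar genes was not tested. In bulk samples fewer acinar cells cannot be told apart from less enzyme RNA per cell.

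Acinar transcripts made up a large part of the wild-type libraries and a small part of the knockout-labelled ones. The 36 genes together took 8.27% of all counts in WT 1 and 13.2% in WT 2, against 0.0475% in KO 1 and 0.859% in KO 2. Both knockout-labelled libraries lay below both wild-type libraries. The summed level in KO 2 was 17.0 times that in KO 1, and in WT 2 it was 1.73 times that in WT 1. On the CPM scale the sum was 110037 ± 41654 in wild type and 4336 ± 5449 in the knockout-labelled group (SD, n = 2), 25.4-fold lower. Set against KO 2 alone the wild-type mean was 13.4-fold higher, and against KO 1 alone 228-fold higher. An exact two-sided permutation test gave p = 0.33 for this sum, the smallest value that 2 against 2 libraries allow.

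Gene by gene, 8 of the 34 tested members fell and 0 rose (edgeR's quasi-likelihood test, Benjamini-Hochberg adjusted p under 0.05). By the same rule 20.2% of all 13990 genes tested fell and 22.0% rose. At an unadjusted p under 0.05, 10 members were lower and 0 higher, where 24.5% of all genes were lower and 26.2% higher. The 8 were Ctrc, Pla2g1b, Amy1, Amy2a5, Serpini2, Aqp12, Erp27 and Tmed6. The share of members that fell, 23.5%, was near that of all genes. The median log2 difference over tested members was -5.53, with single values from -9.77 to 1.75, against -0.01 over all genes. In 33 of 34 tested members both knockout-labelled libraries lay below both wild-type libraries, an order found in 36.8% of all genes.

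With either knockout-labelled library left out, the test called most of the members. Without KO 1, 28 of 34 tested members fell (13.1% of all genes fell in that fit), and without KO 2, 30 of 33 did (12.4% of all genes). The 28 called without KO 1 were also called without KO 2. In these fits a single knockout-labelled library is assumed to vary as the wild-type pair does. The median difference was -4.61 without KO 1 and -9.03 without KO 2. DESeq2 with all 4 libraries called 25 of 34 members lower and 0 higher (17.5% of all genes lower).

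**Figure D1:**
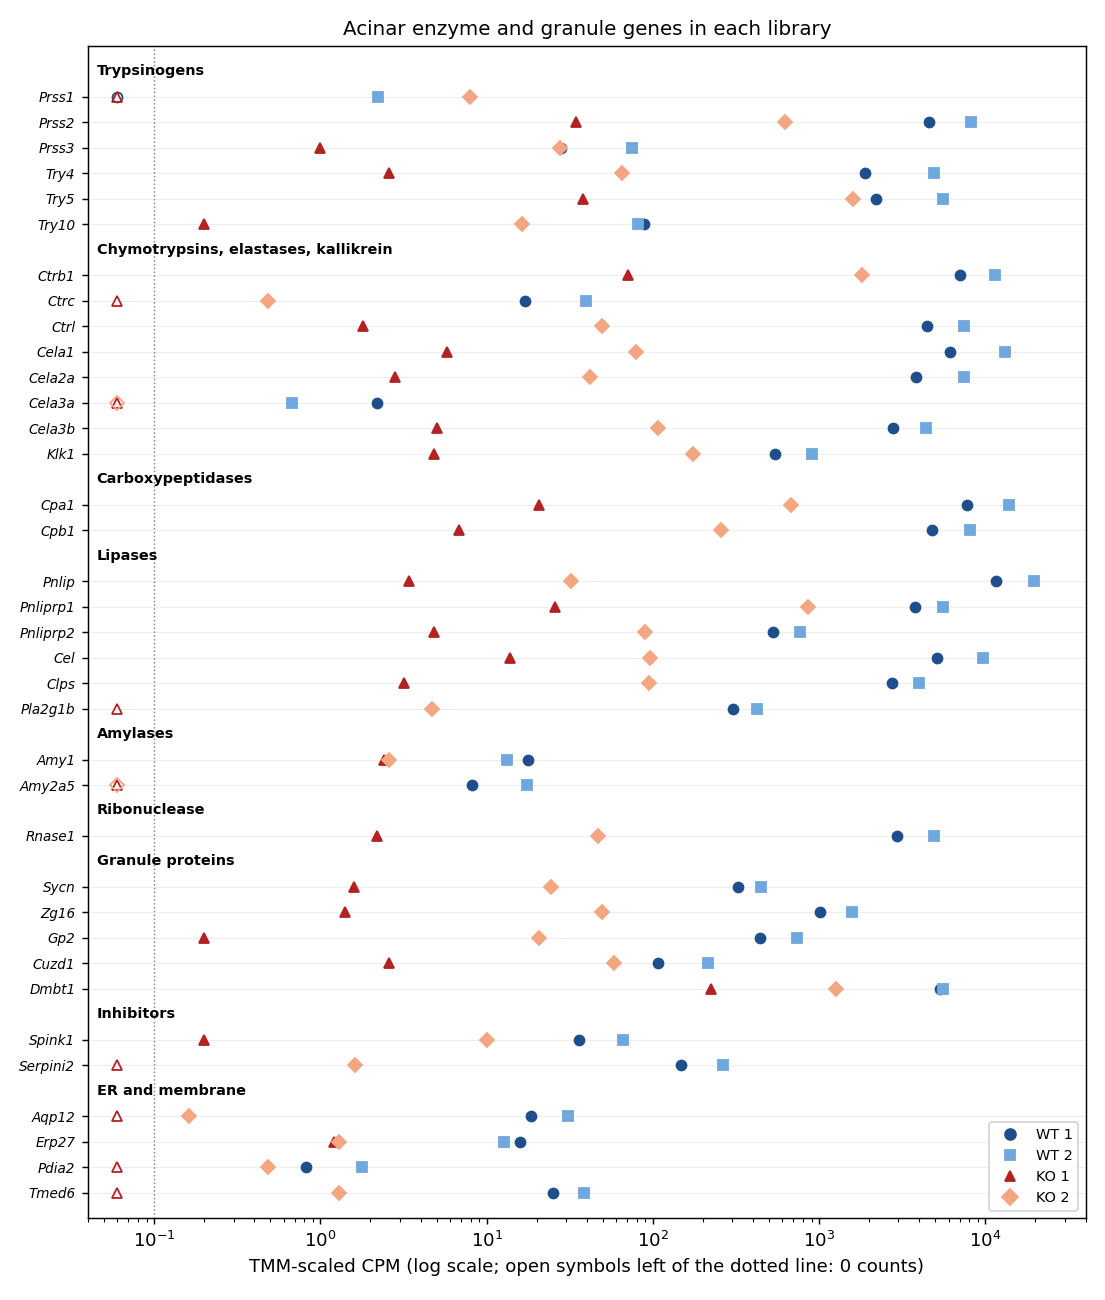
Level of each of the 36 acinar genes in each library, in TMM-scaled CPM on a log axis, grouped by role; open symbols mark 0 counts. The wild-type symbols lie to the right of both knockout-labelled symbols for all genes except Prss1, and KO 1 lies furthest left for most genes.

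Trypsinogens are the precursors of the protease that activates the other zymogens. The 6 of the set summed to 8797 and 18825 CPM in the wild-type libraries and 76.2 and 2343 CPM in KO 1 and KO 2. The 6 genes lie in one cluster on mouse chromosome 6 (mm10). Prss2 (chromosome 6, 41521787 to 41525079, plus strand), which took the most counts of the 6 in wild type, stood at 4596 and 8198 CPM in wild type against 34.4 CPM in KO 1 and 621 in KO 2 (log2 difference -4.29 ± 2.01 SE, edgeR adjusted p = 0.238). Try5 (chromosome 6, 41311233 to 41316841, minus strand) stood at 2204 and 5557 CPM in wild type against 38.0 CPM in KO 1 and 1605 in KO 2 (log2 difference -2.24 ± 2.30 SE, edgeR adjusted p = 0.531). Its level in KO 2 came close to that of WT 1, whereas KO 1 was far below. Try4, its neighbour, stood at 1880.3 and 4913 CPM in wild type against 2.60 CPM in KO 1 and 65.5 in KO 2 (log2 difference -6.63 ± 2.36 SE, edgeR adjusted p = 0.162). Levels of Prss3 were 28.1 and 74.4 CPM in wild type against 1.00 CPM in KO 1 and 27.7 in KO 2 (log2 difference -1.81 ± 1.73 SE, edgeR adjusted p = 0.501), with KO 2 just below WT 1. Try10 was measured at 88.8 and 80.9 CPM in wild type against 0.200 CPM in KO 1 and 16.3 in KO 2 (log2 difference -3.31 ± 1.63 SE, edgeR adjusted p = 0.250), with 1 count in KO 1. Prss1 was near the floor: it had 0 counts in WT 1 and KO 1 and stood at 2.23 CPM in WT 2 and 7.89 CPM in KO 2 (log2 difference 1.75 ± 2.19 SE, edgeR adjusted p = 0.583). It was the only tested member whose groups overlapped. Trypsinogen models resemble each other closely. Of the distinct stretches of 50 bases in their GENCODE transcripts, 7.83% for Prss2, 47.6% for Try5, 65.6% for Try4, 40.8% for Try10, 54.9% for Prss1 and 66.1% for Prss3 also occur in another gene. How reads that fit several genes were counted was not stated in the labels or notes, so single trypsinogen values other than those of Prss2 are uncertain.

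Chymotrypsinogens, elastases and tissue kallikrein summed to 24735 and 44701 CPM in wild type and 91.2 and 2260.3 CPM in KO 1 and KO 2. Chymotrypsinogen B, Ctrb1 (chromosome 8, 111686519 to 111691010, minus strand), had 7081 and 11412 CPM in wild type against 71.0 CPM in KO 1 and 1807 in KO 2 (log2 difference -3.30 ± 2.10 SE, edgeR adjusted p = 0.343). Per kilobase of exon it was the most abundant member in wild type, with 8065 and 12998 CPM per kb, followed by Pnlip (6346 and 10766) and Prss2 (5639 and 10059), whose ranges overlap. The pancreatic elastase Cela1 (chromosome 15, 100674425 to 100687920, minus strand) was at 6085 and 13071 CPM in wild type against 5.80 CPM in KO 1 and 79.0 in KO 2 (log2 difference -7.81 ± 2.15 SE, edgeR adjusted p = 0.107). Cela2a had 3813 and 7405 CPM in wild type against 2.80 CPM in KO 1 and 41.7 in KO 2 (log2 difference -7.96 ± 2.10 SE, edgeR adjusted p = 0.0995). The chymotrypsin-like Ctrl had 4422 and 7477 CPM in wild type against 1.80 CPM in KO 1 and 49.4 in KO 2 (log2 difference -7.85 ± 2.38 SE, edgeR adjusted p = 0.127). Cela1, Cela2a and Ctrl were abundant in wild type and low in both KO 1 and KO 2, whereas Ctrb1 was still at 1807 CPM in KO 2. None of these enzymes passed. Cela3b was at 2775 and 4385 CPM in wild type against 5.0 CPM in KO 1 and 107 in KO 2 (log2 difference -5.99 ± 2.17 SE, edgeR adjusted p = 0.165). Klk1, tissue kallikrein, which releases kinins, had 539 and 910.2 CPM in wild type against 4.80 CPM in KO 1 and 175 in KO 2 (log2 difference -3.002 ± 2.10 SE, edgeR adjusted p = 0.381). In both genes KO 2 lay between KO 1 and wild type. Of their 50-base stretches, 19.2% for Cela3b and 24.0% for Klk1 occur in another gene. Ctrc, chymotrypsin C, was one of the called members, at 16.9 and 39.6 CPM in wild type, 0 in KO 1 and 0.483 CPM in KO 2 (log2 difference -6.61 ± 0.80 SE, edgeR adjusted p = 0.000929). Its 3 counts in the knockout-labelled group gave a pooled ratio of wild type to knockout-labelled of 109.8 (95% exact binomial interval 37.1 to 536, counting error only). Exons of Ctrc and Cela2a overlap on the same strand over 21.4% of the Ctrc exon bases, so both values are uncertain. Cela3a, with 8 and 3 counts in wild type and 0 in the knockout-labelled libraries, was too low to be tested. Taking 3 counts over the knockout-labelled group as the limit gave a level 5.05-fold lower, with counting error in wild type left out. Of its 50-base stretches, 34.2% also occur in Cela3b.

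Carboxypeptidases, which trim amino acids from the carboxyl end of the peptides that the other proteases release, summed to 12535 and 21960.05 CPM in wild type and 27.4 and 939 CPM in KO 1 and KO 2. Cpa1 (chromosome 6, 30639218 to 30645363, plus strand), whose enzyme removes aromatic and aliphatic residues, had 7762 and 13842 CPM in wild type against 20.6 CPM in KO 1 and 680.1 in KO 2 (log2 difference -4.95 ± 2.40 SE, edgeR adjusted p = 0.250). Cpb1 (chromosome 3, 20248264 to 20275733, minus strand), specific for basic residues, had 4773 and 8118 CPM in wild type against 6.80 CPM in KO 1 and 258 in KO 2 (log2 difference -5.60 ± 2.50 SE, edgeR adjusted p = 0.224). For both genes the groups did not overlap, and KO 2 was 33.0 and 38.0 times KO 1.

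Lipases and their cofactor summed to 24059.7 and 40090.4 CPM in wild type and 51.0 and 1172 CPM in KO 1 and KO 2. Pancreatic lipase, Pnlip (chromosome 19, 58670365 to 58681786, plus strand), which splits dietary triglycerides, took more counts in wild type than any other member, at 11563 and 19615 CPM in wild type against 3.40 CPM in KO 1 and 32.0 in KO 2 (log2 difference -9.77 ± 1.88 SE, edgeR adjusted p = 0.0527). The fitted difference was 872-fold, the largest of the tested members that had counts in both groups. Pnlip missed the threshold narrowly in edgeR, and DESeq2 called it lower. It passed with median-ratio (RLE) scaling, with upper quartile scaling and with the replicate number as a block (edgeR adjusted p = 0.0374, 0.0445 and 0.00228; range over all alternatives 1.53e-14 to 0.167). Cel (chromosome 2, 28555795 to 28563403, minus strand), the bile salt-dependent carboxyl ester lipase, had 5116 and 9710.1 CPM in wild type against 13.8 CPM in KO 1 and 95.6 in KO 2 (log2 difference -7.08 ± 1.60 SE, edgeR adjusted p = 0.0692). It passed with the replicate block (edgeR adjusted p = 3.61e-07) and with DESeq2. It did not pass with RLE or upper quartile scaling or with no filter on low counts. Colipase, Clps, which anchors pancreatic lipase to fat droplets, stood at 2760.4 and 3999 CPM in wild type against 3.20 CPM in KO 1 and 95 in KO 2 (log2 difference -6.10 ± 2.31 SE, edgeR adjusted p = 0.177). Both relatives of Pnlip next to it on chromosome 19 had smaller fitted differences. Pnliprp1 (chromosome 19, 58728887 to 58744169, plus strand), a relative with little known lipase activity, had 3791 and 5578 CPM in wild type against 25.8 CPM in KO 1 and 855 in KO 2 (log2 difference -3.41 ± 2.22 SE, edgeR adjusted p = 0.352). Pnliprp2 (chromosome 19, 58759723 to 58777533, plus strand), a lipase of broader substrate range, had 528 and 769 CPM in wild type against 4.80 CPM in KO 1 and 89.5 in KO 2 (log2 difference -3.77 ± 1.81 SE, edgeR adjusted p = 0.246). Phospholipase A2, Pla2g1b, fell from 301 and 421 CPM in wild type to 0 in KO 1 and 4.67 CPM in KO 2 (log2 difference -7.16 ± 1.32 SE, edgeR adjusted p = 0.0486). Its call was lost with no filter on low counts, with the replicate block, without WT 1 and without WT 2 (edgeR adjusted p = 0.126, 0.150, 0.185 and 0.192).

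Amylases, which split starch, had few counts in these files: Amy1 and Amy2a5 summed to 26.0 and 30.6 CPM in wild type and 2.40 and 2.58 CPM in KO 1 and KO 2. Amy2a5 (chromosome 3, 113247178 to 113258837, minus strand), a pancreatic amylase, fell from 8.20 and 17.4 CPM in wild type to 0 counts in both knockout-labelled libraries (edgeR adjusted p = 0.000467). Taking 3 counts over the knockout-labelled group as the limit gave a level 49.6-fold lower, with counting error in wild type left out. The gene belongs to a tandem family: 53.5% of its 50-base stretches occur in another gene, and all of those of Amy2a2, Amy2a3 and Amy2a4 do, models that had 0 counts in every library. The low level of Amy2a5 is therefore uncertain as a level of pancreatic amylase. Amy1 (chromosome 3, 113555710 to 113606699, minus strand), the salivary and liver type, fell from 17.8 and 13.2 CPM in wild type to 2.40 CPM in KO 1 and 2.58 in KO 2 (log2 difference -2.62 ± 0.37 SE, edgeR adjusted p = 0.000820). Its exons overlap those of Rnpc3 on the same strand over 32.7% of their bases, and, unlike the enzymes above, it was nearly level between KO 1 and KO 2. Amy2b, outside the set and further along the cluster, fell as well, from 88.8 and 93.0 CPM in wild type to 0.200 and 1.93 CPM in KO 1 and KO 2 (log2 difference -6.29 ± 0.53 SE, edgeR adjusted p = 0.000303). Of the 50-base stretches of Amy2b, 40.2% occur in another gene, so its level is uncertain too. The pancreatic ribonuclease Rnase1 (chromosome 14, 51145002 to 51146767, minus strand), which digests dietary RNA, had 2955 and 4935 CPM in wild type against 2.20 CPM in KO 1 and 47.0 in KO 2 (log2 difference -7.31 ± 2.19 SE, edgeR adjusted p = 0.124).

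Granule proteins summed to 7232 and 8536 CPM in wild type and 231 and 1410.02 CPM in KO 1 and KO 2, a sum dominated by Dmbt1. Dmbt1 (chromosome 7, 131032053 to 131121630, plus strand), a secreted scavenger receptor protein that several epithelia and not only acinar cells make, had 5349 and 5566 CPM in wild type against 225 CPM in KO 1 and 1257 in KO 2 (log2 difference -2.88 ± 1.09 SE, edgeR adjusted p = 0.154). Between WT 1 and WT 2 it differed 1.04-fold, whereas the median over members with more than 3 counts in WT 1 was 1.68. Zg16 (chromosome 7, 127050156 to 127087328, minus strand), a lectin of the granule matrix, stood at 1012 and 1573 CPM in wild type against 1.40 CPM in KO 1 and 49.4 in KO 2 (log2 difference -5.65 ± 2.14 SE, edgeR adjusted p = 0.178). Gp2, the glycoprotein anchored to the inner face of the granule membrane, had 439.6 and 737 CPM in wild type against 0.200 CPM in KO 1 and 20.8 in KO 2 (log2 difference -5.76 ± 1.94 SE, edgeR adjusted p = 0.151). Both were abundant in wild type and near the floor in KO 1. Syncollin, Sycn, which sits on that same face, had 324 and 446 CPM in wild type against 1.60 CPM in KO 1 and 24.5 in KO 2 (log2 difference -4.85 ± 1.52 SE, edgeR adjusted p = 0.133). Cuzd1, a granule membrane protein, was at 107 and 214 CPM in wild type against 2.60 CPM in KO 1 and 58.4 in KO 2 (log2 difference -2.37 ± 1.74 SE, edgeR adjusted p = 0.400).

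Inhibitors and proteins of the secretory route and membranes include 4 of the 8 members that fell. Spink1, the trypsin inhibitor packed with the zymogens, stood at 36.1 and 66.4 CPM in wild type against 0.200 CPM in KO 1 and 9.98 in KO 2 (log2 difference -3.26 ± 1.47 SE, edgeR adjusted p = 0.213). Serpini2, a serpin of the exocrine pancreas, fell from 148 and 263 CPM in wild type to 0 in KO 1 and 1.61 CPM in KO 2 (log2 difference -7.83 ± 0.94 SE, edgeR adjusted p = 0.00923). Aqp12, an intracellular aquaporin of acinar cells, fell from 18.6 and 30.8 CPM to a single count in KO 2 and 0 in KO 1 (edgeR adjusted p = 6.58e-05), a pooled ratio of 284 (95% interval 50.4 to 11267, counting error only). In each of these called genes both KO libraries were at or near 0. Tmed6, a cargo receptor of the early secretory pathway, fell from 25.1 and 38.4 CPM to 0 in KO 1 and 1.29 CPM in KO 2 (log2 difference -5.46 ± 0.73 SE, edgeR adjusted p = 0.00186). Erp27, an endoplasmic reticulum protein that binds misfolded proteins, fell from 15.8 and 12.7 CPM to 1.20 and 1.29 CPM (log2 difference -3.49 ± 0.41 SE, edgeR adjusted p = 0.000319). Pdia2, a pancreatic protein disulfide isomerase, had 3 and 8 counts in wild type and 0 and 3 in KO 1 and KO 2 and was too low to be tested.

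**Figure D2:**
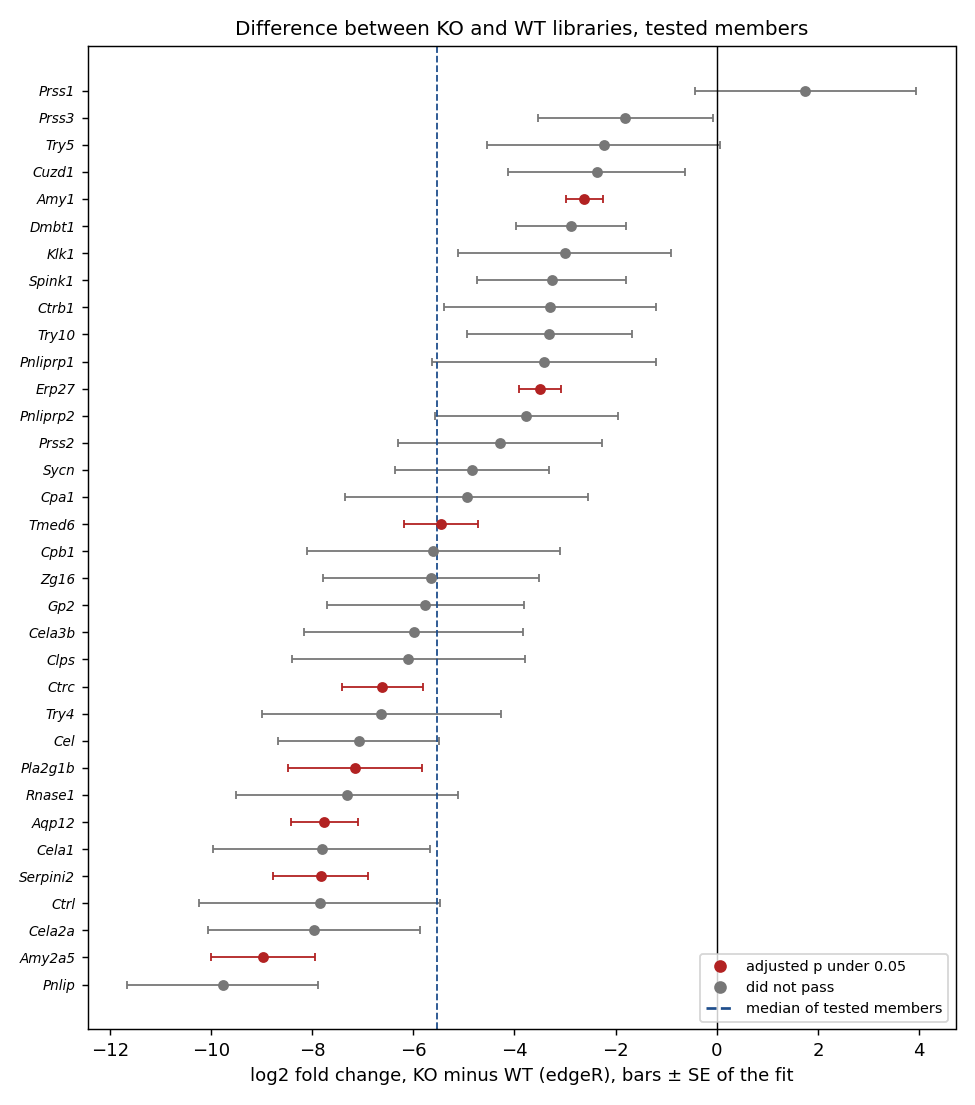
log2 difference between KO and WT libraries for the 34 tested members with the standard error of the edgeR fit; red points had an adjusted p under 0.05. The dashed line is the median, -5.53, and 33 of 34 points lie left of 0.

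The enzymes were not lower in equal proportion, and the make-up of the acinar counts differed between the groups. In both wild-type libraries Pnlip was the leading gene, with 14.3% and 14.1% of the members' summed counts, followed by Cpa1 with 9.63% and 9.92%. In KO 1 and KO 2 Pnlip made up 0.705% and 0.391%. Ctrb1 was at 8.79% and 8.18% in wild type and 14.7% and 22.1% in KO 1 and KO 2. Try5 was at 2.73% and 3.98% in wild type and 7.88% and 19.6% in KO 1 and KO 2. The shares of both knockout-labelled libraries were thus lower than wild type for Pnlip and higher for Ctrb1 and Try5. Cela1 had 7.55% and 9.37% in wild type and 1.20% and 0.965% in KO 1 and KO 2, and Ctrl had 5.49% and 5.36% against 0.373% and 0.603%. Dmbt1 took 46.6% of the sum in KO 1 and 15.4% in KO 2, against 6.64% and 3.99% in wild type. With Dmbt1 left out of the sum, Ctrb1 was at 9.41% and 8.52% in wild type and 27.6% and 26.1% in KO 1 and KO 2, and Pnlip at 15.4% and 14.6% against 1.32% and 0.462%. Across the 24 members with more than 3 counts in every library, log2 shares correlated at 0.991 between WT 1 and WT 2 and at 0.840 between KO 1 and KO 2, and at 0.510 to 0.707 between the groups. These correlations are across genes, which share a library and are not independent replicates.

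**Figure D3:**
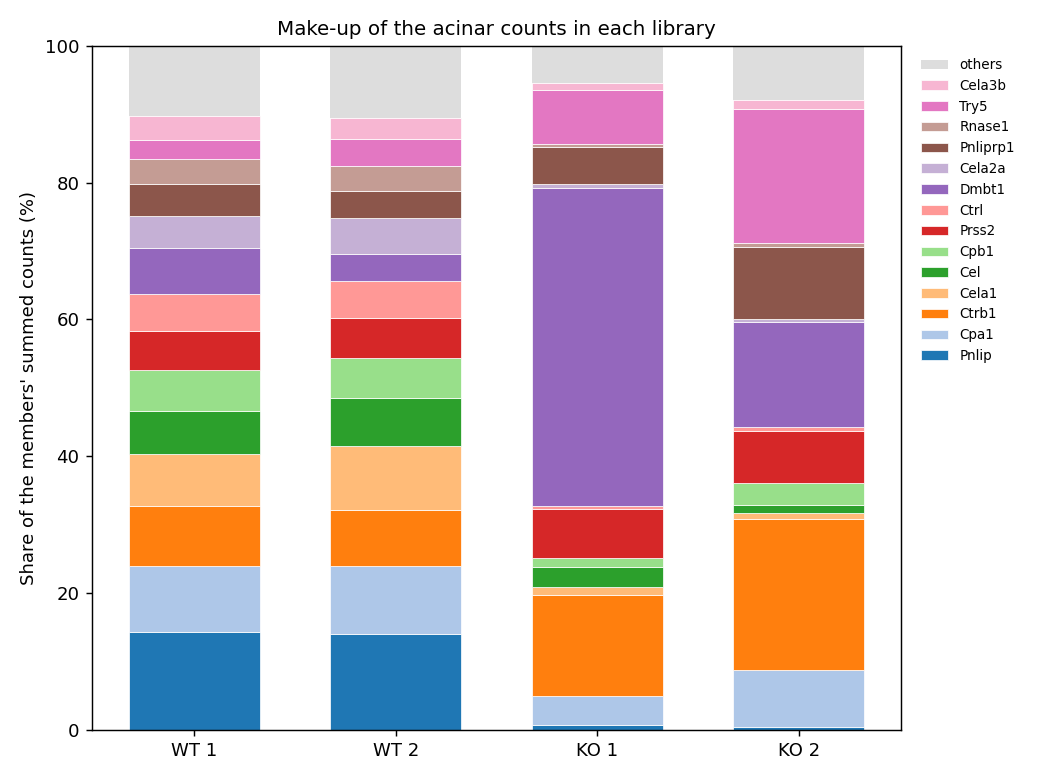
Share of each gene in the summed counts of the 36 acinar genes, one bar per library; genes outside the 14 named are grouped as others. WT 1 and WT 2 have nearly the same make-up, while Pnlip is a thin band and Ctrb1, Try5 and Dmbt1 are wide in KO 1 and KO 2.

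Ratios between members within a library do not depend on its depth. The 7 pairs of the figure, and Pnliprp2 with Pnlip, were picked after the levels had been seen, so their ratios are descriptions with no test. Pnliprp2 per Pnlip, not in the figure, was 0.0457 (95% interval 0.0436 to 0.0478) and 0.0392 (95% interval 0.0379 to 0.0405) in WT 1 and WT 2. It was 1.41 (95% interval 0.727 to 2.80) and 2.79 (95% interval 2.37 to 3.30) in KO 1 and KO 2. Pnliprp1 had 0.328 (95% interval 0.322 to 0.334) counts per Pnlip count in WT 1 and 0.284 (95% interval 0.280 to 0.288) in WT 2, but 7.59 (95% interval 4.56 to 13.4) in KO 1 and 26.7 (95% interval 23.2 to 30.9) in KO 2. The order of these neighbours was thus turned around in both knockout-labelled libraries. Ctrb1 had 1.60 (95% interval 1.57 to 1.63) and 1.53 (95% interval 1.51 to 1.55) counts per Ctrl count in WT 1 and WT 2, and 39.4 (95% interval 20.5 to 87.0) and 36.6 (95% interval 32.7 to 41.1) in KO 1 and KO 2. Try5 had 1.17 (95% interval 1.13 to 1.21) and 1.13 (95% interval 1.11 to 1.15) counts per Try4 count in wild type, and 14.6 (95% interval 8.34 to 28.0) and 24.5 (95% interval 22.2 to 27.1) in KO 1 and KO 2. The ratios of KO 1 and KO 2 lay near each other in both of these pairs and far above wild type. Reads of the similar Try4 and Try5 may have been split or dropped in counting. Klk1 per Cela1 was 0.0886 (95% interval 0.0846 to 0.0928) and 0.0696 (95% interval 0.0674 to 0.0719) in wild type, against 0.828 (95% interval 0.461 to 1.47) and 2.22 (95% interval 1.99 to 2.47) in KO 1 and KO 2. Cuzd1 per Gp2 was 0.244 (95% interval 0.218 to 0.272) and 0.290 (95% interval 0.270 to 0.312) in wild type, against 13 (95% interval 1.95 to 552) in KO 1, where Gp2 had 1 count, and 2.81 (95% interval 2.30 to 3.47) in KO 2. Both ratios were higher in each knockout-labelled library than in wild type. The carboxypeptidase ratio, Cpa1 per Cpb1, moved less: 1.63 (95% interval 1.60 to 1.66) and 1.71 (95% interval 1.68 to 1.73) in wild type, 3.03 (95% interval 2.04 to 4.61) and 2.63 (95% interval 2.48 to 2.79) in KO 1 and KO 2. Dmbt1 per Ctrb1 overlapped between the groups, at 0.755 (95% interval 0.741 to 0.770) and 0.488 (95% interval 0.480 to 0.495) in wild type and 3.17 (95% interval 2.81 to 3.58) and 0.695 (95% interval 0.676 to 0.716) in KO 1 and KO 2. Intervals are exact binomial and cover counting error only, since no molecular identifiers are described.

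**Figure D4:**
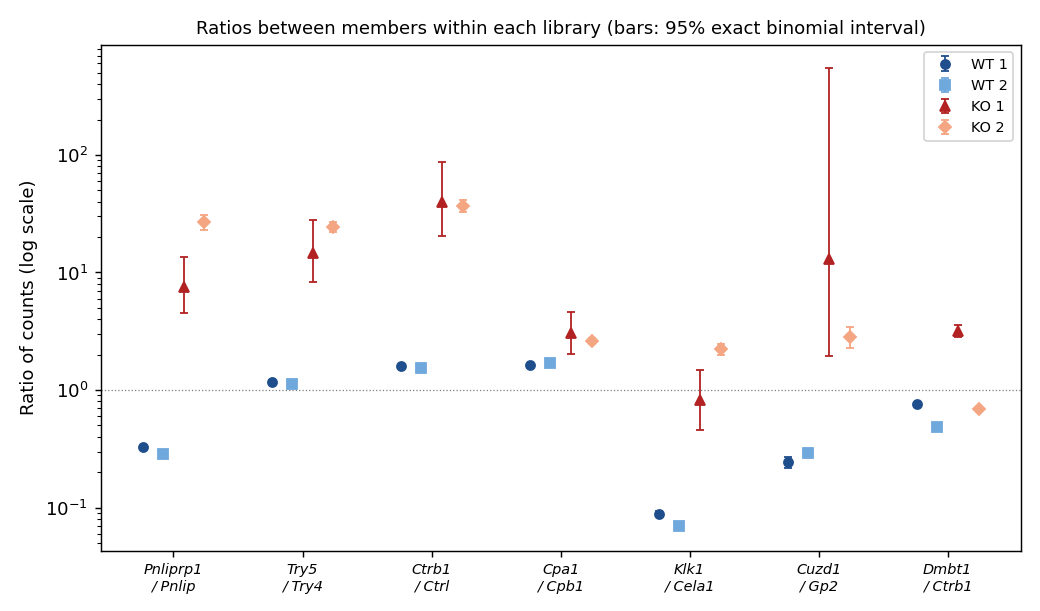
Ratio of counts between pairs of members within each library, on a log axis, with 95% exact binomial intervals. In 6 of the 7 pairs shown both knockout-labelled libraries lie above both wild-type libraries. For Pnliprp1 to Pnlip the ratio runs from below 1 in wild type to above 1. The pairs were picked after the levels had been seen, so the number of pairs with this order is no test.

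The promoters of 2 such pairs are shown, since their members share a family and differ in their ratio between the groups. The first pair is adjacent on chromosome 19 and the second lies on chromosome 8. Each line gives the 250 bases before the RefSeq start on the gene's own strand (GRCm38.p6, the build also called mm10), with capitals for the letters searched:
Pnlip: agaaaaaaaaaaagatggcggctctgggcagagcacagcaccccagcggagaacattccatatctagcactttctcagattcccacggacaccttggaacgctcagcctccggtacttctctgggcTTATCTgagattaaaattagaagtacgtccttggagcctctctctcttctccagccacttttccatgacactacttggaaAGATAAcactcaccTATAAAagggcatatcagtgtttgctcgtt
Pnliprp1: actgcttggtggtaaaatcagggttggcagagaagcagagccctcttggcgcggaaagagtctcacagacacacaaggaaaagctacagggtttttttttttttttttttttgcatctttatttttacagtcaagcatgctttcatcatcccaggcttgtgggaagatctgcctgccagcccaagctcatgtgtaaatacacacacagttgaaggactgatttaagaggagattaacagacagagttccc
Ctrl: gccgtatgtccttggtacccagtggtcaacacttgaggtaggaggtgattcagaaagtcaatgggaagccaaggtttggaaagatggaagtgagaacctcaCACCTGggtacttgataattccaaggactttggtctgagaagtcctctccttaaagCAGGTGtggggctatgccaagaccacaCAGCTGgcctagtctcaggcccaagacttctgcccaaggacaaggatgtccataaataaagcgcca
Ctrb1: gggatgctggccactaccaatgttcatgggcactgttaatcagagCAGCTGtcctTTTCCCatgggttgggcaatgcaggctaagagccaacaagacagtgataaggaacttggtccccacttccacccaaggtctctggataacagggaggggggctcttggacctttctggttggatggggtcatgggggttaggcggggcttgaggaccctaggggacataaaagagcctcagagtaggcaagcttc

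The windows are chr19:58670115-58670364 (plus strand), chr19:58728637-58728886 (plus strand), chr8:105933863-105934112 (minus strand) and chr8:111691011-111691260 (minus strand). The motifs searched were the E-box CACCTG and the TC-box TTTCCC of the PTF1 complex, the E-box CAGCTG, the NR5A2 element CAAGGTCA and the GATA element AGATAA on both strands, and TATAAA on the gene's strand. Pnlip holds AGATAA 124 bases (antisense) and 44 bases before its start and TATAAA 30 bases before it. Ctrl holds CACCTG 149 and 93 (antisense) bases and CAGCTG 66 bases before its start. Ctrb1 holds CAGCTG 205 bases and TTTCCC 195 bases before its start, and Pnliprp1 holds none of these letters in this window. No matches overlapped one another in these windows. Of the 28 members with a promoter in the table, 17 held CACCTG, 8 TTTCCC, 6 CAGCTG, 9 AGATAA, 2 CAAGGTCA and 9 TATAAA. Over all 32851 promoters of that length the shares were 17.2%, 21.9%, 13.0%, 9.99%, 1.33% and 7.59%. A member was counted if any of its promoters held the letters, while these shares are over single promoters, so the units are unlike. A match of letters is a description and not a site of binding.

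Replicates also differed by gene. Among the 24 members with more than 3 counts in KO 1, KO 2 was higher than KO 1 by a median of 21.9 times, from 1.07 for Amy1 to 42.2 for Try5. Erp27, like Amy1, was nearly equal in KO 1 and KO 2 (1.07 times), and Dmbt1 (5.59 times), Cel (6.92 times) and Pnlip (9.42 times) differed less than most. Over the same libraries the summed level of the duct markers was 14711 CPM in KO 1 and 14408 CPM in KO 2, and that of the islet markers 284 and 164 CPM.

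Other secreted acinar genes outside the set were also low in KO 1. Of 15 listed genes 7 were tested, of which 1 fell (Amy2b, above) and 0 rose, where 20.2% of all genes fell and 22.0% rose. Their median log2 difference was -2.08 against -0.01 over all genes. At an unadjusted p under 0.05 the counts were also 1 and 0, and DESeq2 called 3 lower and 0 higher. The model 2210010C04Rik lies on chromosome 6, as do the 6 trypsinogen genes of the set. It had 5674 and 9204 CPM in wild type against 5.80 CPM in KO 1 and 315 in KO 2 (log2 difference -5.53 ± 2.65 SE, edgeR adjusted p = 0.246). It fell without KO 1 (edgeR adjusted p = 0.00223) and without KO 2 (edgeR adjusted p = 0.000526). The lectin genes Reg1 and Reg2 had smaller fitted differences than that model. Reg1 was at 1118 and 1798 CPM in wild type against 32.2 CPM in KO 1 and 671 in KO 2 (log2 difference -2.05 ± 1.89 SE, edgeR adjusted p = 0.489). Reg2 was at 386 and 662 CPM in wild type against 10 CPM in KO 1 and 237 in KO 2 (log2 difference -2.08 ± 1.90 SE, edgeR adjusted p = 0.485). A pair of models on the same chromosome, chosen after their values were seen, ran the other way. Gm2663 (chromosome 6, 40995830 to 40999479, minus strand) had 0 counts in both wild-type libraries and 10 and 332 in KO 1 and KO 2 (2.00 and 53.4 CPM). Its counts pooled over the knockout-labelled group were 82.7-fold higher than a limit of 3 counts over wild type, with counting error left out. 1810009J06Rik (chromosome 6, 40964754 to 40968435, plus strand) had 0 and 3 counts in wild type and 6 and 219 in KO 1 and KO 2, a pooled ratio of 54.4 (95% interval 18.4 to 266, counting error only). Both pooled values come mostly from KO 2 and do not cover the spread between KO 1 and KO 2. Neither passed the filter on low counts, so neither was tested in the main fit. With no filter and all libraries, 11 of the listed genes were tested, these models among them, and 0 rose. These models share 83.5% and 81.5% of their 50-base stretches with another gene, which for each is the other of the pair, so their counts cannot be told apart.

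Transcription factors of the acinar cell differed among themselves. Of 6 listed factors 5 were tested, 1 fell and 0 rose, also at an unadjusted p under 0.05, and DESeq2 called 1 lower and 1 higher. At the adjusted threshold 20.2% of all genes fell and 22.0% rose in edgeR. Bhlha15, which drives granule maturation, fell from 15.0 and 15.0 CPM in wild type to 0.800 and 0.966 CPM in KO 1 and KO 2 (log2 difference -4.04 ± 0.42 SE, edgeR adjusted p = 0.000169). Rbpjl, the acinar partner of PTF1A, had 12.3 and 32.8 CPM in wild type against 0.600 CPM in KO 1 and 12.1 in KO 2 (log2 difference -1.79 ± 1.44 SE, edgeR adjusted p = 0.418), with KO 2 next to WT 1. It fell without KO 2 (log2 difference -5.14, edgeR adjusted p = 0.0258) and with the replicate block (edgeR adjusted p = 0.00569). Ptf1a itself had 1 and 5 counts in wild type and 0 and 11 in KO 1 and KO 2 and was too low to be tested. Nr5a2, a nuclear receptor, had 6.28 and 10.9 CPM in wild type against 7.80 CPM in KO 1 and 32.2 in KO 2 (log2 difference 1.21 ± 0.77 SE, edgeR adjusted p = 0.274). The zinc-finger factor Gata4 had 2.46 and 6.03 CPM in wild type against 6.80 CPM in KO 1 and 31.9 in KO 2 (log2 difference 2.16 ± 0.95 SE, edgeR adjusted p = 0.145). For both, KO 2 was the highest library. Without KO 1 both passed as higher (Nr5a2 log2 difference 1.89, edgeR adjusted p = 0.0115; Gata4 2.88, edgeR adjusted p = 0.00763). Both also passed as higher with no filter and with the replicate block (Nr5a2 edgeR adjusted p = 0.00393 and 0.0115), and Gata4 with DESeq2 too (Gata4 with no filter, DESeq2 and the block, adjusted p = 0.000317, 0.0121 and 9.36e-06). Without KO 2, Nr5a2 stood at -0.11. Xbp1, a factor of the secretory apparatus used by many cell types, had 144 and 198 CPM in wild type against 149.7 CPM in KO 1 and 226 in KO 2 (log2 difference 0.14 ± 0.24 SE, edgeR adjusted p = 0.675).

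Genes of granule release moved both ways, and their summed level was 944 and 1054 CPM in wild type against 955 and 1031 CPM in KO 1 and KO 2. Of 15 listed genes 14 were tested, 5 rose and 5 fell (median log2 difference 0.09, against -0.01 over all genes). Over all genes tested 22.0% rose and 20.2% fell, so changes in both directions are not particular to this list. With upper quartile scaling 2 rose, and leaving out 1 library gave 1 to 4 that rose, fewest without WT 1, and 2 to 5 that fell, fewest without WT 2. DESeq2 called 3 in each direction. The syntaxin Stx3, a membrane fusion protein, rose, at 10.7 and 14.7 CPM in wild type against 62.4 CPM in KO 1 and 78.2 in KO 2 (log2 difference 2.46 ± 0.25 SE, edgeR adjusted p = 0.000137). The granule GTPase Rab27b rose as well, at 11.2 and 16.8 CPM in wild type against 21.6 CPM in KO 1 and 32.8 in KO 2 (log2 difference 0.96 ± 0.31 SE, edgeR adjusted p = 0.0353). Its call was lost with upper quartile scaling, with DESeq2, without WT 1 and without KO 2 (adjusted p = 0.0747, 0.0610, 0.151 and 0.224). Rab27a, its relative, fell, at 52.2 and 57.7 CPM in wild type against 14 CPM in KO 1 and 13.0 in KO 2 (log2 difference -2.02 ± 0.21 SE, edgeR adjusted p = 0.000175). The muscarinic receptor Chrm1 fell too, at 2.19 and 4.02 CPM in wild type against 0.200 CPM in KO 1 and 0.644 in KO 2 (log2 difference -2.76 ± 0.75 SE, edgeR adjusted p = 0.0182). That call was lost with DESeq2, without KO 1 and without KO 2 (adjusted p = 0.0571, 0.172 and 0.0787). Cckar, the cholecystokinin receptor of mouse acinar cells, was also named for its values, with 17.5 and 33.3 CPM in wild type against 3.20 CPM in KO 1 and 68.9 in KO 2 (log2 difference 0.51 ± 1.75 SE, edgeR adjusted p = 0.853). Without KO 2 it was lower, by a log2 difference of -2.95 (edgeR adjusted p = 0.00862). Of 23 endoplasmic reticulum folding and translocation genes 6 rose and 4 fell (median 0.04), where 22.0% of all genes rose and 20.2% fell. The share of these genes that fell, 17.4%, was near that of all genes. With upper quartile scaling 2 rose, and without WT 1, WT 2 or KO 2 the number was 3. Without WT 2, 1 fell, and without KO 1 or KO 2 the number was 2. The translocon subunits Sec61a1 and Ssr3 rose, with log2 differences of 0.86 ± 0.16 and 0.83 ± 0.15 SE (edgeR adjusted p = 0.00279 and 0.00310). Creld2 and Sdf2l1, induced by unfolded proteins, fell, by 1.15 ± 0.23 and 1.002 ± 0.29 SE in log2 units (edgeR adjusted p = 0.00441 and 0.0219). Leaving out WT 2, KO 1 or KO 2 ended the Sdf2l1 call (edgeR adjusted p = 0.193, 0.105 and 0.0717). These folding genes are known from secretory cells of many kinds.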

How the data were processed

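The authors deposited 1 file of raw read counts per gene model for each of the 4 libraries. RNA came from an easy-BLUE extraction, and libraries were built from 1 µg of it with the stranded SMARTer chemistry, per the labels' protocols. TopHat, edgeR (no versions) and mm10 are named, per the submitters' processing notes. The counter, its annotation, strand setting and multi-mapping rule were not given in the sources used here. Groups were taken from the sample titles.

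After filterByExpr and TMM scaling, all 4 libraries were tested with genotype as the only term (edgeR 4.0.16, glmQLFit with robust estimation, glmQLFTest, R 4.3.3), which left 2 residual degrees of freedom over 13990 genes. Adjustment was by Benjamini-Hochberg over all of these, with a threshold of 0.05. The procedure was tested on simulated data with the same spread for every gene. That setting does not cover gaps as wide as those of most members between KO 1 and KO 2. Replicates differed by more than sampling noise (chi-square per degree of freedom 20.1 and 20.0). Exon lengths and 50-base matches came from GENCODE M21, promoters from RefSeq (28 of 36 members matched). File starts count from 0 and are printed from 1. The members, lists and rule for named genes were chosen with earlier results of these data known. Every member is named; of the other lists, the transcription factors and up to 2 largest rises and 2 largest falls past the threshold, with exceptions said where they occur. One gene of the other lists is not reported here. Alternatives were RLE, upper quartile and acinar-free scaling, no filter, DESeq2 1.42.0, a replicate block and leaving out each library.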

Additional observations from a re-analysis of the deposited data

How the results depend on the processing

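No tested member rose under any of the 10 alternatives, and of the 34 members tested with the filter, 33 had a negative difference in each. The count of members that fell, 8, became 9 with RLE or upper quartile scaling, 8 with acinar genes left out of the scaling, 8 of 36 tested with no filter and 9 with the replicate block, and 25 with DESeq2; leaving out 1 library gave 7 to 30. Of the 8, 7 were called under every alternative and Pla2g1b was not. The members' median ran from -9.03 to -4.61 and the log2 ratio of their sums from -7.80 to -3.74 when 1 library was left out, both lowest without KO 2. Over all genes the fallen numbered 1867 to 2276 without 1 library. Leaving out 1 library gave, lower and higher, 1 to 2 and 0 to 2 transcription factors, 1 to 6 and 0 to 2 other secreted genes, 2 to 5 and 1 to 4 exocytosis genes, and 1 to 3 and 3 to 5 folding genes. With the replicate block 2 factors fell, 2 factors rose and 2 other secreted genes fell. With no filter 2 factors rose. DESeq2 called 1 factor higher, 3 other secreted genes lower and 3 exocytosis genes in each direction. Upper quartile scaling left 2 exocytosis and 2 folding genes higher and moved the median of all genes from -0.01 to -0.20. The median of the factors, set by Xbp1, changed sign with upper quartile scaling (-0.0607) and ran from -0.16 without KO 2 to 0.41 without KO 1 when 1 library was left out. Nr5a2 ran from -0.11 to 1.89 and Cckar from -2.95 to 1.44 over the same fits, and Cckar changed sign with the replicate block (-0.21). The cause of these changes was not tested. Same-numbered libraries share only a number: their deviations correlated at 0.0486 over 13990 genes, and the block is not a pairing by design. Counts of 0 or 1 in KO 1 limit what can be said of the lowest members.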
